A study of Mus musculus with 18 samples.

Results

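Mouse embryonic stem cells on their way to heart muscle were compared between day 5 (D5) and day 7 (D7) of differentiation, the opening and the close of the stage that the submitters name cardiac progenitor cells. The comparison used 3 poly(A) RNA libraries of each day, 6 of the 18 in the series, and all 13116 of 23337 gene symbols whose counts passed an expression filter. All groups were of 1 line, TBX5-FTA on the A2Lox.cre background, and were untreated, so no group carried a perturbation. The 3 libraries of day 6 (D6), also named progenitors, split the span into its first and second day, and the 3 libraries each of day 8 (D8) and day 15 (D15), named immature cardiomyocytes, gave a later span for contrast. The labels give no separate cultures for the libraries of a day, so every p-value here measures the spread between libraries and that spread may be technical.

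In the embryo, heart progenitors come from mesoderm that leaves the primitive streak, and they settle into a first heart field, which forms muscle early, and a second heart field, which stays proliferative longer under FGF, Wnt, retinoic acid and Hedgehog signals. T-box, GATA, HAND and MEF2 transcription factors then switch on the contractile genes. Neighbouring mesoderm forms the epicardium, which makes fibroblasts and smooth muscle, and the endocardium. Hedgehog signals act through PTCH1 and SMO on the GLI transcription factors, and heterochronic genes such as Lin28a, an RNA-binding protein that blocks let-7 microRNAs, set how long cells stay immature. The series asks how Hedgehog and GLI networks relate to the timing of differentiation.

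Levels are CPM (counts relative to the library total, the usual unit of RNA-seq levels), scaled by the trimmed mean of M-values, and are given for the 3 libraries of a day in the order of the running numbers in the column names, which pair no libraries across days. Changes are log2 fold changes with their standard error (SE). A gene rose or fell where the adjusted p of edgeR's quasi-likelihood test was under 0.05, with the Benjamini-Hochberg method applied to all genes tested. In bulk RNA, fewer cells of a type and less RNA per cell cannot be told apart. Libraries of D5 held 6689537 to 7122093 counts, those of D6 6208403 to 6406717 and those of D7 6339689 to 6417737. The root mean square log2 distance between libraries was 0.337 to 0.349 within D5, 0.378 to 0.426 within D7 and 0.877 to 0.946 between D5 and D7, so the days lay further apart than any libraries of one day.

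Between D5 and D7, 6858 genes were called, 52.3% of those tested. Of these, 3440 rose (26.2%) and 3418 fell (26.1%), and the median change of all genes was 0.01. Changes of at least 2-fold were more often rises, with 1187 genes up (9.05%) and 809 down (6.17%), and at least 4-fold changes numbered 507 up and 285 down. The D5 and D7 libraries did not overlap for 7869 genes (60.0%). Each gene list below is described by its counts and median, to be read beside these shares.

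**Figure D1:**
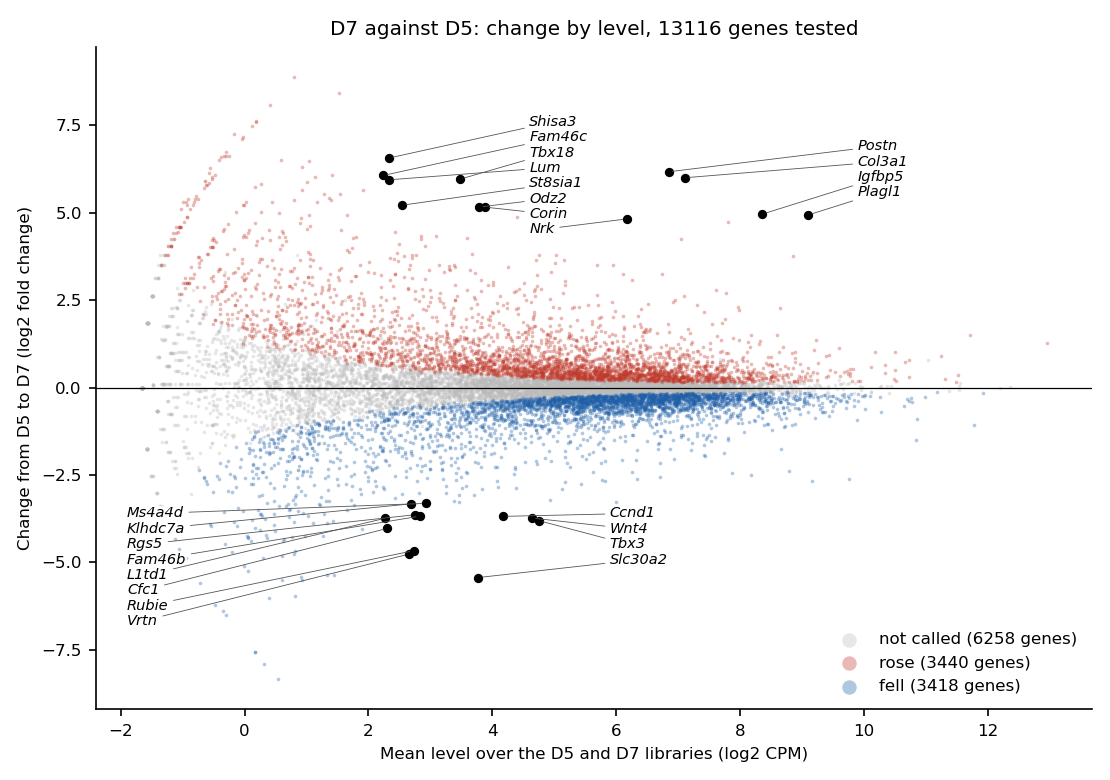
Change from D5 to D7 (log2 fold change, vertical axis) against the mean level over the 6 libraries (log2 CPM, horizontal axis) for the 13116 genes tested. Red points rose, blue points fell, grey points were not called, and black points are the 12 largest rises and 12 largest falls of the naming rule. The named rises reach from 4.82 to 6.56 and the named falls from -3.31 to -5.43.

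The largest rises of the naming rule included Postn, Col3a1 and Tbx18. Postn (chromosome 3, 54361109 to 54391037, mm10) encodes periostin, a matrix protein of heart fibroblasts and valve mesenchyme. Its level was 12.4, 13.4 and 15.4 CPM at D5 and 750.4, 790.2 and 1431 CPM at D7, a change of 6.17 (SE 0.44, adjusted p = 9.03e-08). Col3a1 (chromosome 1, 45311538 to 45349706), a fibrillar collagen, went from 18.2, 15.5 and 17.8 CPM to 1077, 958.6 and 1263 CPM, a change of 6.0 (SE 0.21, adjusted p = 3.28e-11). No D5 library came near a D7 library for either gene. Tbx18 (chromosome 9, 87702800 to 87731260), a T-box factor of the sinus venosus and the epicardial precursor tissue, was at 1.02, 1.4 and 1.36 CPM and then at 90.5, 80.5 and 68.3 CPM, a change of 5.96 (SE 0.24, adjusted p = 3.22e-13).

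The largest rise of the rule was Shisa3 (chromosome 5, 67607882 to 67623552), whose family of membrane proteins holds back Wnt and FGF receptors. It was at 0.291, 0.419 and 0.409 CPM at D5, close to the detection limit, and at 43.8, 39.9 and 27.9 CPM at D7, a change of 6.56 (SE 0.31, adjusted p = 2.57e-16). Lum (lumican, a matrix proteoglycan) and Fam46c (a poly(A) polymerase) also started close to 0, and changed by 5.94 and 6.06. Plagl1, an imprinted zinc-finger factor, rose from an already high level of 88, 101.4 and 108.5 CPM to 2974, 2957 and 3175 CPM, a change of 4.93 (SE 0.13, adjusted p = 5.26e-15). Igfbp5, a secreted protein that binds insulin-like growth factors, went from 58.5, 56.1 and 61.8 CPM to 1974, 1782 and 1731 CPM. The other rises of the rule were St8sia1 (5.21), a ganglioside sialyltransferase, Odz2 (5.16), the older symbol of a teneurin, Corin (5.16), the protease that activates the atrial natriuretic peptide, and Nrk (4.82), a kinase.

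The largest fall of the rule was that of Slc30a2 (chromosome 4, 134343181 to 134354484), a zinc transporter. It dropped from 86.2, 88.4 and 78.4 CPM to 1.79, 1.54 and 2.48 CPM, a change of -5.43 (SE 0.23, adjusted p = 2.97e-16). Vrtn, a gene tied to the number of vertebrae, changed by -4.76, and Cfc1, the Nodal co-receptor Cryptic, by -4.03. L1td1, an RNA-binding protein of pluripotent cells, was at 17.3, 16.5 and 13.8 CPM and then at 1.19, 0.771 and 1.55 CPM, a change of -3.74 (SE 0.31, adjusted p = 4.76e-11). Tbx3, a T-box repressor of the conduction system, fell from 85.1, 97.3 and 119.4 CPM to 4.76, 7.4 and 9.45 CPM, and Ccnd1, cyclin D1, from 69.5, 69.5 and 56.1 CPM to 2.53, 5.86 and 6.82 CPM. The remaining falls of the rule were Rubie (-4.67), a long noncoding RNA beside Bmp4, Wnt4 (-3.73), Fam46b (-3.68), Rgs5 (-3.64), Klhdc7a (-3.32) and Ms4a4d (-3.31).

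Markers of the labelled cell type and of others were summed per library. The 11 progenitor markers held 1395 to 1638 CPM at D5, 1994 to 2178 CPM at D6 and 1494 to 1558 CPM at D7. Members of this sum moved both ways over the span: Hand1 and Isl1 fell, while Gata4, Tbx5 and Hand2 rose, as given below. Mesp1, a factor of the earliest heart mesoderm, had 7 counts over the D5 libraries and 0 at D6 and D7. The 7 cardiomyocyte markers held 361.3 to 423.7 CPM at D5 and 466.2 to 1156 CPM at D7, and muscle genes were thus present on both days labelled progenitor. The 4 fibroblast markers went from 139.3 to 180.0 CPM up to 3351 to 4695 CPM, and the 4 endothelial ones from 57.8 to 70.5 CPM up to 333.2 to 464.5 CPM. Most of the endothelial sum at D5 and at D7 was Tek, whose levels are given below, so the sum mainly follows that gene. Smooth muscle markers (3: Tagln, Cnn1 and Myh11) were at 1307 to 1549 CPM at D5, 320.6 to 490.0 CPM at D6 and 626.5 to 819.5 CPM at D7. All 3 fell over the span, while 3 other members of the smooth muscle list below rose. The list of 9 held 0.45% to 0.492% of all counts at D5 and 0.415% to 0.485% at D7. The 4 blood, 4 endoderm and 3 pluripotency markers held at most 4.65, 0.465 and 0.925 CPM at D7, and the skeletal muscle factors Myod1 and Myog had no count from D5 to D7. The part of these cell types in the gene changes below was not tested.

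**Figure D2:**
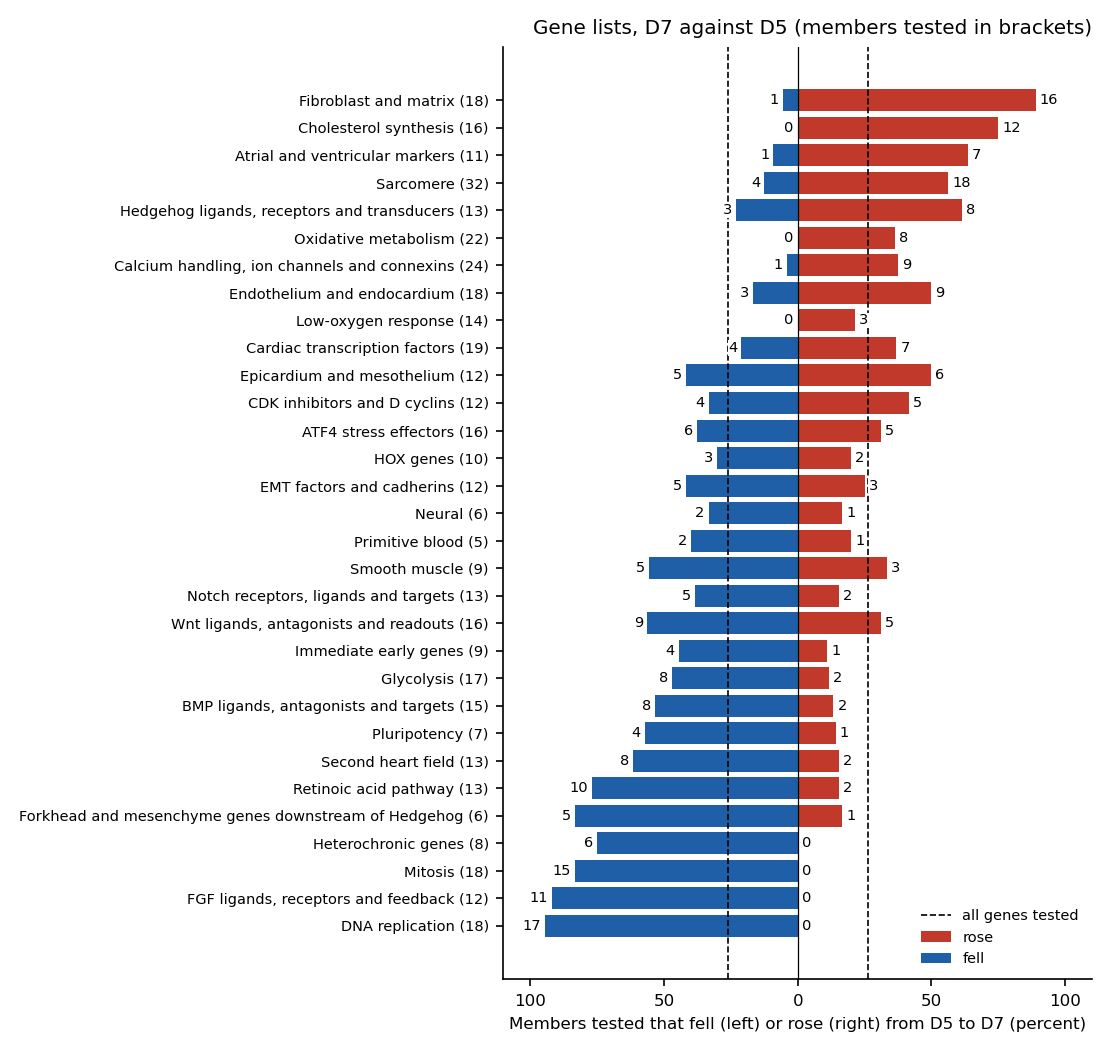
Share of the tested members of each gene list (percent, horizontal axis) that fell (blue, left) or rose (red, right) from D5 to D7, with the number of genes at the end of each bar and the members tested in brackets. Dashed lines mark the shares over all genes tested, 26.1% fell and 26.2% rose. Matrix (16 of 18) and cholesterol synthesis (12 of 16) stand at the top, DNA replication (17 of 18) and FGF genes (11 of 12) at the bottom, and lists with under 5 members tested are not drawn.

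Of 19 tested cardiac transcription factors, 7 rose and 4 fell, with a median change of 0.56. Tbx5 (chromosome 5, 119832668 to 119885219), a factor of the first heart field and the atria, was at 6.54, 6.56 and 6.13 CPM at D5 and at 35.7, 28.8 and 13.3 CPM at D7, a change of 2.02 (SE 0.44, adjusted p = 0.00192). All D7 libraries were above the D5 libraries, and the third D7 library was the lowest of its day. Gata4 and Gata6, zinc-finger factors that act with Tbx5, rose by 1.36 (SE 0.15) and 0.90 (SE 0.12). Zfpm2, the GATA partner FOG2, rose by 1.88 (SE 0.11) and Tbx2, a repressor of the atrioventricular canal, by 1.60 (SE 0.17). Hand1 and Hand2 parted. Hand1 went from 465.2, 561.8 and 724.9 CPM to 307.3, 290.3 and 369.2 CPM, a change of -0.86 (SE 0.15, adjusted p = 3.55e-04), and Hand2 from 87, 86.6 and 81.2 CPM to 116.2, 94.1 and 117.8 CPM, a change of 0.36 (SE 0.09, adjusted p = 0.00153). Besides Hand1, the members that fell were Tbx3, Isl1 and Srf, the serum response factor (-0.70, SE 0.08). Nkx2-5, the homeobox factor that marks heart precursors, stayed near the detection limit at 0.436, 2.09 and 0.136 CPM at D5 and 3.27, 1.39 and 0.465 CPM at D7, and was not called (0.94, SE 0.97, adjusted p = 0.431).

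Contractile genes showed a wide spread between libraries at D7. Of 32 tested sarcomere members, 18 rose and 4 fell. The median change was 2.44, or 1.79 with genes that had no count on a day set at their lower bound. Myh6, the alpha myosin heavy chain, was at 7.27, 9.35 and 6.67 CPM at D5 and at 157.8, 129.4 and 36.9 CPM at D7, a change of 3.80 (SE 0.83, adjusted p = 0.0019). Tnnt2, cardiac troponin T, was at 130.0, 120.8 and 106.9 CPM and then at 371.8, 316.7 and 184.4 CPM, a change of 1.29 (SE 0.34, adjusted p = 0.00648). In these and in Myl3, Myl4, Tnni1 and Unc45b the third D7 library was the lowest of its day, although it was above every D5 library. Myl4, the atrial light chain, rose by 3.08 (SE 0.49), Tnni1, slow troponin I, by 2.44 (SE 0.27), Unc45b, a myosin chaperone, by 2.82 (SE 0.49), and Myl3, a ventricular light chain that was under 1 CPM at D5, by 5.55 (SE 1.51). Des, desmin, rose with little spread, from 27, 24.3 and 27.1 CPM to 157.3, 149.3 and 119.3 CPM. Myh7, the beta myosin heavy chain, overlapped between days and was not called (0.63, SE 0.47, adjusted p = 0.282). With 1 library left out at a time, between 14 and 18 members rose, and 18 rose without the third D7 library. DESeq2 called 22 rises and limma-voom 9, and with limma-voom Myh6 and Myl3 were not called.

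The 4 sarcomere members that fell were Acta1, Ankrd1, Tnnc1 and Tpm1. Acta1, skeletal alpha actin, dropped from 136.0, 144.8 and 129.5 CPM to 18.3, 27.3 and 20 CPM, a change of -2.65 (SE 0.17, adjusted p = 5.00e-11). Ankrd1, a stretch-responsive titin partner, went from 103.4, 118.0 and 88.7 CPM to 30.5, 33.9 and 26.6 CPM. Tnnc1, cardiac troponin C, fell by 1.52 (SE 0.39) on the log2 scale and Tpm1, a tropomyosin, by 0.90 (SE 0.08). In the smooth muscle list 5 of 9 members fell and 3 rose. Tagln fell by 0.92 (SE 0.15), Cnn1 by 1.74 (SE 0.29) and Myh11 by 2.01 (SE 0.39). Acta2, smooth muscle actin, which both lists hold, rose from 1284, 1368 and 1218 CPM to 2032, 2278 and 2350 CPM, and Mylk, a myosin kinase, rose by 2.92 (SE 0.36).

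Among 24 genes of calcium handling and ion channels, 9 rose and 1 fell, with 6 rises by limma-voom and 12 by DESeq2. Hcn4, the main pacemaker channel, rose from 12.2, 12.6 and 12.4 CPM to 106.1, 111.0 and 91.4 CPM, a change of 3.05 (SE 0.18, adjusted p = 9.14e-10). Slc8a1, the sodium-calcium exchanger, went from 16.1, 14.7 and 15.4 CPM to 202.0, 192.3 and 130.1 CPM, and Kcnh2, a potassium channel of repolarisation, from 20.6, 16.3 and 16.5 CPM to 94.9, 82.2 and 87.9 CPM. Gja1, a connexin of the gap junctions between muscle cells, rose by 0.30 (SE 0.06). The member that fell was Cacna1g, a T-type calcium channel (-1.53, SE 0.44), while its relative Cacna1h rose by 2.51 (SE 0.55). Of 11 atrial and ventricular markers, 7 rose and 1 fell, with 4 rises by limma-voom and 5 without the first D7 library. Nr2f1 and Nr2f2, orphan receptors of atrial identity, rose by 3.80 (SE 0.49) and 3.65 (SE 0.19), and Nr2f2 went from 8.14, 5.72 and 7.9 CPM to 110.3, 88.5 and 75.1 CPM. The pair of Hairy-related repressors split. Hey1, which is atrial, rose by 1.95 (SE 0.38), and Hey2, which is ventricular, fell by 2.01 (SE 0.34). The list as a whole did not part by chamber, since Myl3, the ventricular light chain given above, is a member and rose.

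**Figure D3:**
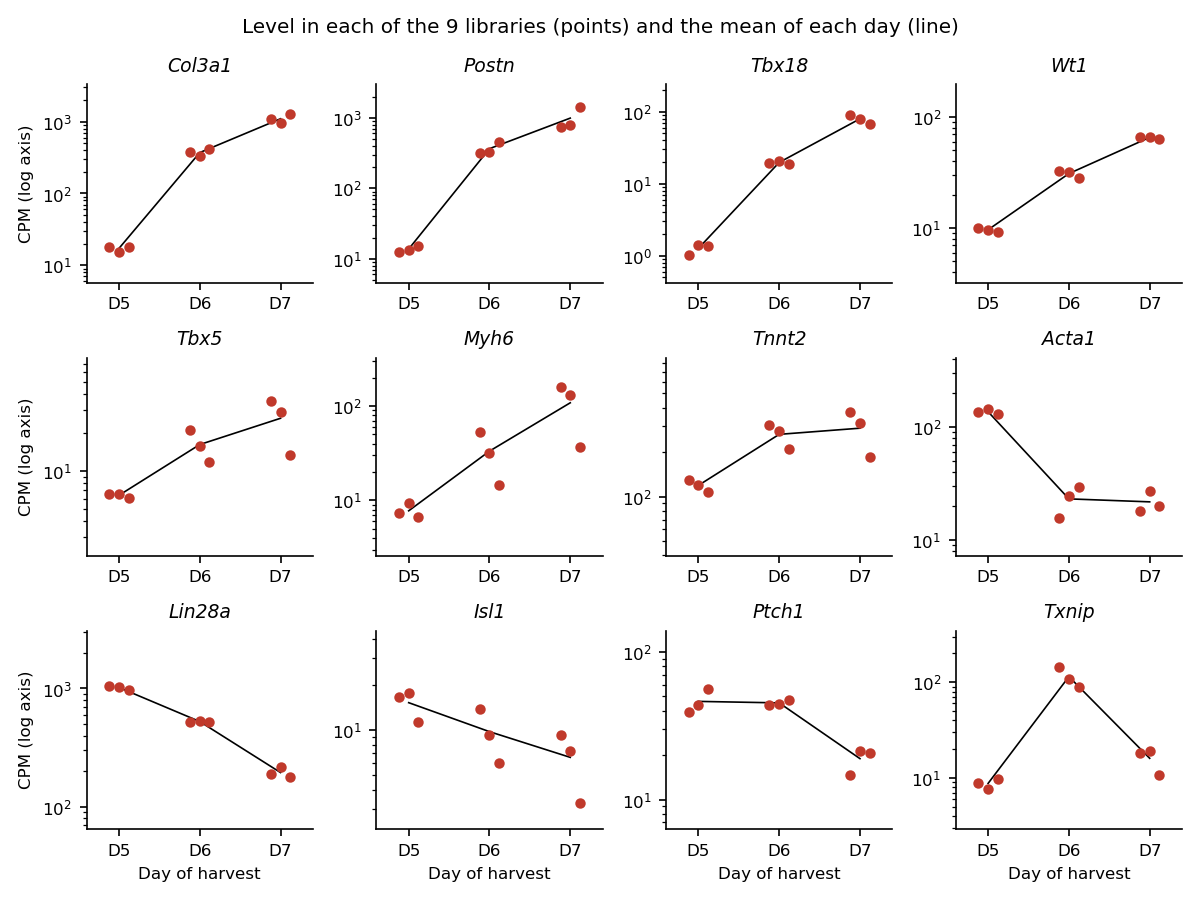
Level (CPM, log axis) of 12 genes in each of the 9 libraries of D5, D6 and D7 (points, side by side in the order of their running numbers), with a line through the mean of each day. Col3a1, Tbx18 and Wt1 climb with libraries close together, and Postn climbs with 1 high D7 library. Tbx5, Myh6 and Tnnt2 climb with 1 low D7 library. Acta1, Lin28a, Isl1 and Ptch1 end lower, and Txnip is high at D6 only among these days.

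Matrix genes rose with few exceptions. Of 18 members tested, 16 rose and 1 fell, with a median change of 1.91, and together they held 0.386% to 0.414% of all counts at D5 and 1.34% to 1.72% at D7. Col1a1 went from 107.3, 127.7 and 144.9 CPM to 1650, 1574 and 1967 CPM (3.77, SE 0.16), and Col1a2 from 46.5, 39.2 and 45.1 CPM to 1100, 1032 and 1356 CPM (4.74, SE 0.20). No D5 library overlapped a D7 library for either chain of type I collagen. Col6a2 and Mfap4, a microfibril protein, rose by 1.54 (SE 0.13) and 1.72 (SE 0.12). Bgn, biglycan, was the member that fell, from 13.5, 14.2 and 12.4 CPM to 2.83, 3.39 and 1.86 CPM.

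Of 12 epicardial and mesothelial members, 6 rose and 5 fell, and the median of 1.34 was 0.29 with Msln, which had no count at D5, at its lower bound. Wt1, the zinc-finger factor that marks the epicardium, was at 10, 9.63 and 9.26 CPM and then at 65.9, 66.8 and 64.1 CPM, a change of 2.76 (SE 0.10, adjusted p = 1.72e-19). Upk1b, a uroplakin of mesothelium, rose by 3.80 (SE 0.18), and Bnc1, basonuclin, by 1.84 (SE 0.10). Of the members that fell, 3 were keratins of simple epithelium. Krt18 fell by 1.75 (SE 0.10), Krt19 by 1.59 (SE 0.09) and Krt8 by 0.64 (SE 0.08), joined by Sema3d (-1.40, SE 0.18) and Tcf21 (-0.95, SE 0.28), a factor of fibroblast precursors. Of 12 tested cadherins and other genes of the change from epithelium to mesenchyme, 5 fell and 3 rose. Cdh1, E-cadherin, dropped from 9.16, 9.91 and 9.4 CPM to 0.595, 2.62 and 1.24 CPM, and Epcam changed by -1.76 (SE 0.40), while Vim, vimentin, rose by 0.51 (SE 0.06). Among the transcription factors, Twist1 fell by 1.52 (SE 0.13), Prrx1 by 1.76 (SE 0.26), and Twist2 rose by 1.36 (SE 0.26).

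Of 18 endothelial and endocardial members, 9 rose and 3 fell. Tek, the angiopoietin receptor, went from 52.2, 52.2 and 62 CPM to 304.6, 299.1 and 414.9 CPM, a change of 2.61 (SE 0.17, adjusted p = 1.39e-08). Tie1 rose by 3.92 (SE 0.49), Cldn5, a tight junction protein, by 3.68 (SE 0.48), and Emcn, endomucin, by 5.02 (SE 1.01) from at most 0.14 CPM. Etv2, the factor that starts the endothelial and blood lineages, was at 4.36, 3.91 and 5.31 CPM at D5 and at 0, 0 and 0.155 CPM at D7. Flt1, a VEGF receptor, fell by 2.12 (SE 0.25) and Nfatc1, an endocardial factor, by 1.68 (SE 0.32). Of 5 tested members of the primitive blood list, 2 fell and 1 rose, and the other 10 did not pass the filter. Tal1 and Lmo2, which act with Etv2 early, fell by 3.06 (SE 0.36) and 2.37 (SE 0.49). Hbb-bh1, an embryonic globin, rose by 2.88 (SE 1.02, adjusted p = 0.0222) from 6 counts over the D5 libraries to 43 over those of D7, and it was not called without the second D5, the third D5, the second D7 or the third D7 library.

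Of 13 genes of the second heart field, 8 fell and 2 rose, with a median of -1.20. Isl1, its LIM-homeobox marker, was at 16.6, 17.7 and 11.3 CPM at D5 and at 9.23, 7.25 and 3.25 CPM at D7, a change of -1.20 (SE 0.35, adjusted p = 0.00844). Hoxb1, a retinoic acid-responsive HOX gene of its posterior part, changed by -2.16 (SE 0.13) and went from 105.4, 124.4 and 112.2 CPM to 25.2, 29.1 and 22.2 CPM. Six2 fell by 3.38 (SE 0.61). The 2 that rose were Nr2f2 and Wnt11, a noncanonical ligand, which went from 2.62, 2.65 and 3.13 CPM to 36.6, 29.1 and 28 CPM. Members under the filter were Fgf8 (52 counts over the D5 libraries and 10 over those of D7), Eya2 (12 and 0) and Tbx1 (32 and 1).

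Genes of the primitive streak had few or no counts at D7. All 3 tested members fell: Eomes from 5.23, 7.54 and 5.31 CPM to 0.446, 0 and 0.155 CPM, Wnt3 by 3.04 (SE 0.36) on the log2 scale, and Lhx1 from 3.49, 5.03 and 2.72 CPM to no count, at least 24.5-fold lower. The other 11 members were under the filter, with at most 52 counts each at D5. Of 7 tested pluripotency genes, 4 fell and 1 rose. Pou5f1 was at 2.91, 2.93 and 2.18 CPM at D5 and at 0, 0.154 and 0 CPM at D7. Sall4 went from 138.3, 139.2 and 139.5 CPM to 36.5, 29.5 and 33.9 CPM and Dnmt3b, a DNA methyltransferase, fell by 1.49 (SE 0.11). Tfcp2l1 was the exception and rose by 1.99 (SE 0.26).

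Heterochronic genes fell in 6 of 8 tested members and rose in none, with a median of -1.08. Lin28a (chromosome 4, 134003330 to 134018841) went from 1059, 1020 and 979.3 CPM to 189.2, 218.5 and 177.6 CPM, a change of -2.39 (SE 0.07, adjusted p = 6.10e-21). Prtg, protogenin, a surface receptor of early embryos, went from 1476, 1424 and 1471 CPM to 200.3, 251.0 and 231.2 CPM, a change of -2.68 (SE 0.08, adjusted p = 3.29e-21). No D7 library of either gene came near a D5 library. Hmga2, a chromatin protein and let-7 target, fell by 1.43 (SE 0.06), Trim71 by 1.36 (SE 0.13), Lin28b by 0.81 (SE 0.09) and Igf2bp1 by 0.47 (SE 0.06). Igf2bp2 (0.09, SE 0.07) and Igf2bp3 (0.12, SE 0.06), named after their values were seen, were not called. All 6 fell again from D8 to D15.

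Hedgehog readouts, the genes that GLI factors switch on most directly, could be read in part. Ptch1 (chromosome 13, 63508328 to 63573598), the receptor and target, was at 39.3, 43.4 and 56 CPM at D5 and at 14.7, 21.3 and 20.8 CPM at D7, a change of -1.29 (SE 0.25, adjusted p = 4.04e-04). Its D6 mean was 45.2 CPM, and the change of the second day minus that of the first was -1.22 (adjusted p = 0.0439). That difference was called in 1 of 9 fits with a library left out, the one without the third D5 library, with adjusted p from 0.0255 to 0.124. Hhip, a decoy receptor, was at 2.62, 2.23 and 2.32 CPM and then 2.23, 2.93 and 2.63 CPM, and was not called (0.12, SE 0.37, adjusted p = 0.808). Gli1, itself a GLI factor and target, was under the filter, with 12, 24 and 9 counts over the libraries of D5, D6 and D7. The ligands Shh, Ihh and Dhh had 5, 1 and 5 counts at D5 and none at D7.

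Of 13 tested receptors, transducers and cilium genes of the pathway, 8 rose and 3 fell. The 3 that fell were 2 of the GLI factors and Sufu. Gli3, mainly a repressor, went from 183.1, 198.5 and 221.7 CPM to 86.5, 118.6 and 122.6 CPM (-0.88, SE 0.11), Gli2, mainly an activator, from 117.6, 117.1 and 108.8 CPM to 71.9, 83.9 and 90.5 CPM (-0.48, SE 0.08), and Sufu, which restrains both, from 46.5, 44.4 and 47.8 CPM to 35.4, 36.4 and 42.3 CPM (-0.28, SE 0.11). Sufu was not called by DESeq2, with upper quartile scaling or in 5 of the 6 fits with a library left out, each of which gave 2 falls, and it was called without the third D7 library. The rises included Hhat, which attaches the lipid to the ligand (1.63, SE 0.23), the co-receptor Cdon (0.77, SE 0.14), Gpr161 (0.80, SE 0.21) and the cilium motor Kif3a (0.46, SE 0.09). Forkhead and mesenchyme genes that lie downstream of Hedgehog in lung and heart mesoderm fell in 5 of 6 tested members. Foxf1a went from 19, 21.8 and 34 CPM to 13.2, 8.48 and 7.44 CPM, Foxc1 fell by 2.23 (SE 0.27), Foxc2 by 1.5 (SE 0.39), Osr1 by 2.18 (SE 0.59) and Wnt2b by 2.46 (SE 0.18). Wnt2 rose, from 27.3, 24 and 19.2 CPM to 74.1, 64.8 and 48.2 CPM.

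In the FGF list 11 of 12 tested members fell and none rose, with a median of -0.88. The receptor Fgfr1 went from 299.4, 316.6 and 310.4 CPM to 147.5, 161.1 and 156.2 CPM (-1.0, SE 0.07), and the feedback inhibitors Spry2 and Spred1 fell by 1.58 (SE 0.17) and 0.97 (SE 0.10). Etv5, a target factor, fell by 1.72 (SE 0.28). In the retinoic acid pathway 10 of 13 fell and 2 rose, with a median of -1.55. Aldh1a2, the enzyme that makes retinoic acid in the embryo, was at 15, 12.6 and 12.4 CPM at D5 and at 0, 0.771 and 0.155 CPM at D7, a change of -5.36 (SE 0.41, adjusted p = 3.17e-10). Rdh10, which makes its substrate, the receptors Rarb and Rarg, and Cyp26b1, which degrades retinoic acid, fell by 2.16, 1.64, 1.55 and 2.54. The exceptions were Crabp2, a binding protein that rose by 1.57 (SE 0.22), and Aldh1a1, which rose by 1.64 (SE 0.52) to at most 2.31 CPM.

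Among 15 BMP genes 8 fell and 2 rose, with 7 falls in every fit with a library left out and with upper quartile scaling. Bmp4 went from 303.0, 315.5 and 292.3 CPM to 77.7, 97.4 and 116.7 CPM (-1.64, SE 0.12), its targets Msx1 and Msx2 fell by 1.97 (SE 0.29) and 2.66 (SE 0.18), and Bmper, which binds BMPs outside the cell, by 3.02 (SE 0.27). The target Id2 rose by 0.94 (SE 0.16) and the pseudoreceptor Bambi by 0.63 (SE 0.11). Of 16 Wnt genes, 9 fell and 5 rose, with a median of -1.08. The readout Lef1 went from 42.3, 40.3 and 43.2 CPM to 5.36, 5.71 and 8.68 CPM, and the antagonist Dkk1 from 36.8, 28.8 and 34.3 CPM to 2.83, 4.93 and 2.63 CPM. Sfrp1, another antagonist, went the opposite way, from 43.5, 35.2 and 26.3 CPM to 376.5, 334.0 and 287.4 CPM, a change of 3.25 (SE 0.18), and Sfrp5 rose by 1.99 (SE 0.35). The readouts did not move together, since Nkd1 rose by 1.22 (SE 0.13). Of 13 Notch genes, 5 fell and 2 rose, with Notch1 and Hes1 lower (-1.59, SE 0.18, and -1.15, SE 0.19) and the ligand Jag1 higher (0.91, SE 0.19).

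Cell-cycle genes fell over the span. Of 18 DNA replication members, 17 fell from D5 to D7 and none rose (median -0.68), and of 18 mitosis members 15 fell and none rose (median -0.36). With 1 library left out at a time, 15 or 16 replication genes and 15 mitosis genes fell from D5 to D7. Between D5 and D6, where 34.6% of all genes were called (18.2% rose, 16.4% fell), 3 replication genes rose and 2 fell, and 4 mitosis genes rose. Between D6 and D7, where 30.4% were called (15.1% rose, 15.3% fell), all 18 replication and all 18 mitosis genes fell. The change of the second day minus that of the first was called for 21.0% of all genes, 9.01% positive and 12% negative, and was negative for 17 of the 18 replication and 16 of the 18 mitosis genes. Without the first D6 library these counts were 14 and 13. Cdc6, which loads the replicative helicase, was at 73.1, 75.7 and 70.3 CPM at D5, at a mean of 61.4 CPM at D6 and at 27.8, 28.2 and 23.4 CPM at D7. Rrm2, a ribonucleotide reductase subunit, went from 323.5, 318.0 and 294.3 CPM through a mean of 325.8 CPM to 182.3, 190.4 and 160.5 CPM. The mitotic kinases Aurka and Aurkb fell by 0.67 (SE 0.07) and 0.56 (SE 0.07).

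The D cyclins and CDK inhibitors took several directions, with 5 of 12 higher and 4 lower. Ccnd2 fell with Ccnd1, from 586.2, 570.0 and 527.6 CPM to 192.3, 272.8 and 259.8 CPM, and Ccnd3 rose by 0.48 (SE 0.08). Among the inhibitors Cdkn1b and Cdkn2c rose by 0.47 (SE 0.07) and 1.77 (SE 0.34), and Cdkn1a fell by 0.60 (SE 0.14). Of the pocket proteins, Rb1 fell by 0.63 (SE 0.14) and Rbl2 rose by 0.93 (SE 0.16).

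Of 17 glycolysis genes 8 fell and 2 rose, among them both glucose transporters of the list. Slc2a3 went from 2107, 2169 and 2239 CPM to 260.6, 379.6 and 433.4 CPM (-2.60, SE 0.24, adjusted p = 1.13e-06) and Slc2a1 from 2964, 3142 and 3266 CPM to 945.9, 1057 and 1286 CPM (-1.51, SE 0.14, adjusted p = 4.05e-07). Ldha, lactate dehydrogenase, fell by 1.48 (SE 0.27). Of 22 oxidative genes 8 rose and none fell, among them Cpt1a, which admits fatty acids to mitochondria (3.42, SE 0.35), Acadl (0.60, SE 0.11) and Ppargc1a, the coactivator of mitochondrial genes, which went from 0.145, 0.14 and 0.409 CPM to 9.52, 6.94 and 3.41 CPM. Of 14 low-oxygen response genes 3 rose and none fell, against 5 and 2 by DESeq2. The 3 were Pdk1 (1.52, SE 0.28) and the collagen prolyl hydroxylases P4ha1 (1.03, SE 0.12) and P4ha2 (2.05, SE 0.14).

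Cholesterol synthesis rose by small steps in 12 of 16 members, with none lower and a median of 0.35. Lss, lanosterol synthase, went from 207.9, 189.2 and 198.7 CPM to 316.7, 377.0 and 354.7 CPM (0.81, SE 0.09, adjusted p = 1.81e-08). Dhcr7, Sc5d and Fdft1 rose by 0.70, 0.66 and 0.62. For each of these the libraries of the days did not overlap. From D5 to D6, 7 members fell and 1 rose, from D6 to D7 13 rose, and the step difference was positive for 10 (9 to 11 with 1 library left out).

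**Figure D4:**
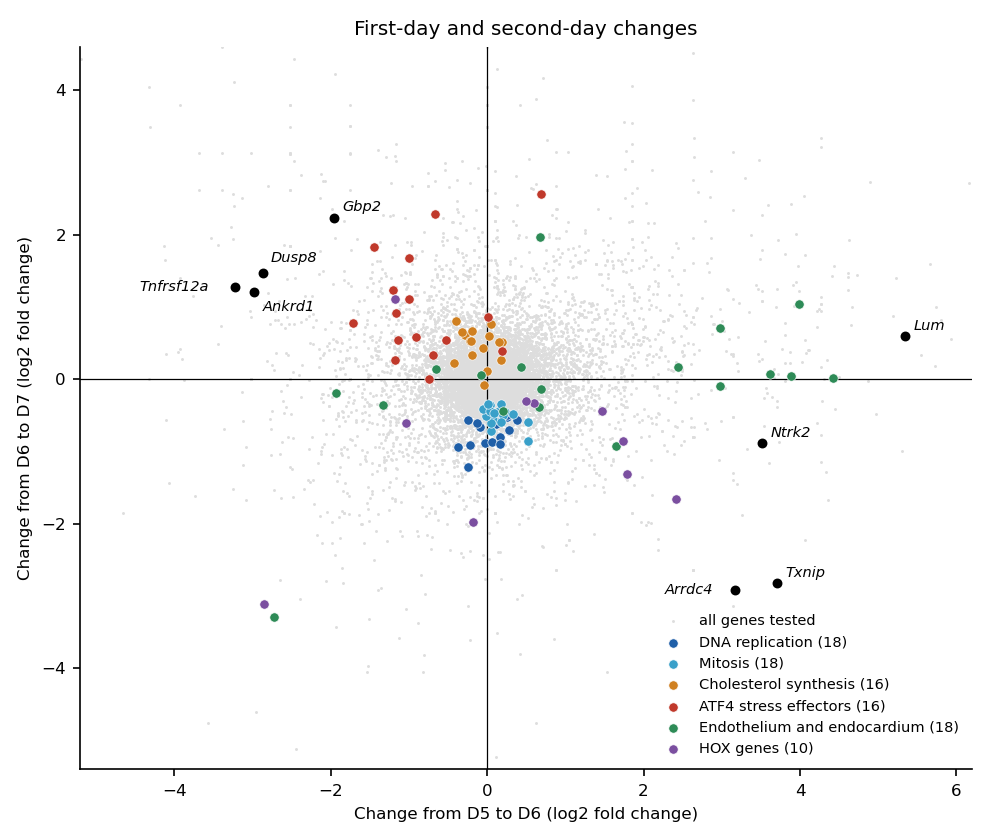
Change from D5 to D6 (horizontal axis) against change from D6 to D7 (vertical axis), both log2 fold changes, for all genes tested (grey) and 6 gene lists (colours, members tested in brackets), with the 8 genes of largest step difference in black. Replication and mitosis genes lie below 0 on the vertical axis and near 0 on the horizontal one, ATF4 genes lie mostly at the upper left, and 19 grey points fall outside the axes.

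For 73.2% of the called genes the D6 mean lay between those of D5 and D7, and genes that rose or fell at least 2-fold had reached a median of 62.7% and 57.2% of their log2 change by then. At D6, 360 genes were called above both neighbouring days and 363 below both.

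Txnip (chromosome 3, 96557957 to 96561883), a glucose-responsive gene, encodes an arrestin-like protein that limits glucose uptake. It had a mean of 114.6 CPM at D6, beside 8.87, 7.68 and 9.81 CPM at D5 and 18.3, 19.1 and 10.8 CPM at D7 (step difference -6.53, adjusted p = 1.87e-08). Its relative Arrdc4, also glucose-responsive, had a mean of 17.8 CPM at D6 and at most 4.03 CPM in any library of D5 or D7 (-6.09, adjusted p = 1.43e-08). Ntrk2, a neurotrophin receptor, also had its highest mean at D6 (32.4 CPM), and Lum, with a difference of -4.76, changed by 5.35 on the first day and 0.59 on the second. The largest positive differences were those of Tnfrsf12a, Dusp8, Gbp2 and Ankrd1, whose D6 means were the lowest of the 3 days. Gbp2, a guanylate-binding protein, was at 15.7, 14.2 and 14 CPM, then at a mean of 3.78 CPM, and at D7 again at 15.6, 17.3 and 20.6 CPM (4.19, adjusted p = 3.21e-09). For Tnfrsf12a, a TNF family receptor, the D6 mean was 2.34 CPM between 20.1, 26 and 19.6 CPM and 4.46, 6.48 and 6.04 CPM.

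The effectors of ATF4, the factor that cells use under amino acid shortage, were mostly lowest at D6. Of 16 members, 12 fell on the first day and none rose, 12 rose on the second and none fell, and the step difference was positive for 12 (10 to 13 with 1 library left out). Over the whole span 5 rose and 6 fell, with a median of 0.03, which was -0.01 without the third D5 and -0.07 without the third D7 library. The 6 falls were 2 without the first D7 library, and 3 without the second D7 or the second D5 library. Slc7a5, an amino acid transporter, was at 172.2, 185.4 and 167.0 CPM, then at a mean of 87.8 CPM and then at 224.7, 277.9 and 339.3 CPM. Psat1, an enzyme of serine synthesis, was at 244.7, 229.4 and 196.2 CPM, at 101.3 CPM and at 126.9, 156.2 and 160.1 CPM. Aldh1l2, a mitochondrial folate enzyme, was like Slc7a5 among the 5 that rose over the span. It went from 1.31, 1.68 and 1.77 CPM to 12.1, 15 and 19.2 CPM.

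Of the endothelial list 9 rose from D5 to D6 and 1 from D6 to D7, and the step difference was negative for 6 (4 to 6 with 1 library left out). Among 10 tested HOX genes 6 rose to D6 and 8 fell from D6 to D7. Hoxb4 was at 16.3, 20.9 and 24.2 CPM, at a mean of 56.9 CPM and at 42.9, 36.4 and 46.8 CPM, and Hoxb5 at 9.74, 9.77 and 12.4 CPM, at 35.4 CPM and at 18.8, 22.5 and 17.5 CPM. In the matrix list 16 rose on the first day and 11 on the second, with the difference negative for 10 members (7 to 11 with 1 library left out) and positive for 1 (none without the first D6 library).

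The later span, D15 against D8, shares no library with D7 against D5 and called 8446 genes (64.4% of those tested, 32.9% rising and 31.5% falling). The change of D7 against D5 minus that of D15 against D8 was called for 6832 genes (52.1%), 27.2% positive and 24.9% negative. In both spans 4742 genes were called, and 1824 of them (38.5%) in opposite directions. Of those, 981 rose and then fell and 843 fell and then rose, while 1432 rose in both spans and 1486 fell in both.

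Lists differed in how the spans related. All 16 cholesterol genes fell from D8 to D15, including the 12 that had risen, and the difference was positive for all 16. Lss fell by 1.85 and Dhcr7 by 1.98 in the later span. FGF and retinoic acid genes turned the other way, with 8 of the 11 FGF genes and 7 of the 10 retinoic acid genes that had fallen rising from D8 to D15. Etv5 rose by 3.36 and Aldh1a2 by 6.25. Of the 8 glycolysis genes that fell, 6 rose later, Ldha by 1.61. Matrix genes kept their direction in 13 of the 16 that rose, with Postn (-2.50) turning down and Bgn (6.70) turning up. Replication and mitosis genes fell in both spans in 14 and 13 members.

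**Figure D5:**
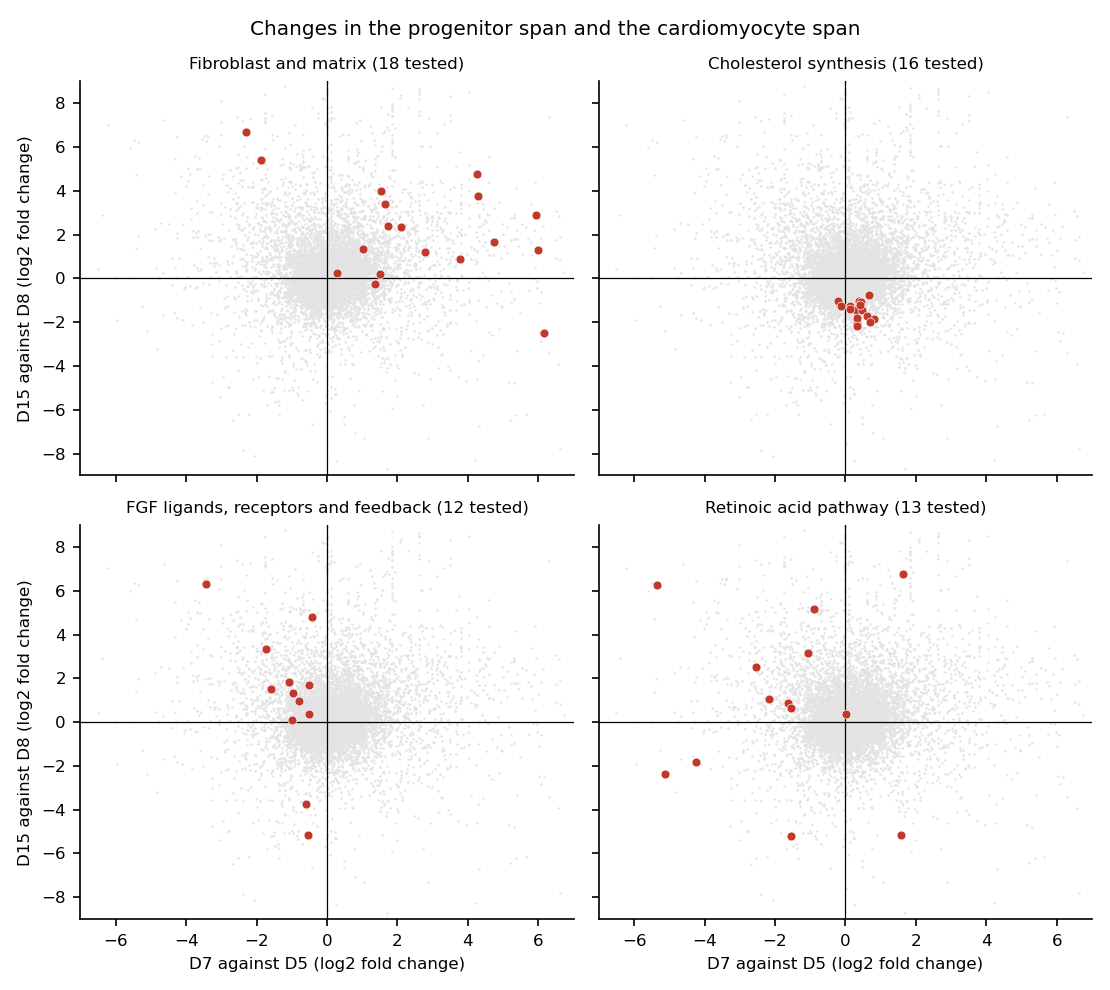
Change of D7 against D5 (horizontal axis) and of D15 against D8 (vertical axis), both log2 fold changes, for all genes tested (grey) and the members of 4 lists (red). Cholesterol genes sit below 0 on the vertical axis, most FGF and retinoic acid genes lie at the upper left, matrix genes mostly at the upper right, and 43 grey points fall outside the axes.

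For 5 of the lists, the bases before the start of each gene were searched for short words that known factors bind. Windows of 250 bases from RefSeq (GRCm38.p6, the coordinates of mm10) were at hand for 9358 of the genes tested. The CCAAT box (CCAAT, or ATTGG on the other strand), bound by NF-Y, was in 40.8% of these windows, in 10 of 10 cholesterol, 14 of 15 mitosis, 10 of 15 replication, 10 of 28 sarcomere and 1 of 10 matrix genes. E2F words (TTTCCCGC, TTTGGCGC, TTTCGCGC or TTTGCCGC on either strand, which can overlap) were in 3.98%, and in 5 of 15 replication genes. The CArG box of serum response factor was in 1.49%, and in 7 of 28 sarcomere genes. A sterol element (TCACCCCAC or its complement) was in 0.684%, and in 1 of 10 cholesterol genes. The TATA word (TATAAA or TTTATA) was in 7.81%, in 3 of 10 matrix and 3 of 28 sarcomere genes, and in no window of the other lists. These matches describe the letters of the windows and nothing more.

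One window is shown for each word other than the TATA word, each from the last 250 bases before the start on the strand of the gene. Capitals mark only matches of the word named beside each gene. The Mcm5 and Actc1 windows also hold CCAAT boxes, left in lower case. These 4 genes were chosen after their values and windows were seen.
Hmgcs1 chr13:119690101-119690350 (+), CCAAT boxes and the sterol element: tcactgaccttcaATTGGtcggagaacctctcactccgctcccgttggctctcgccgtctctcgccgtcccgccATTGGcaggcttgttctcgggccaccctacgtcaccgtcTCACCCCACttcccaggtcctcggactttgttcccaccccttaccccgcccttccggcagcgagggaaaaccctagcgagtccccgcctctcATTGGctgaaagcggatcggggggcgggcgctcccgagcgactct
Ccnb2 chr9:70421555-70421804 (-), CCAAT boxes: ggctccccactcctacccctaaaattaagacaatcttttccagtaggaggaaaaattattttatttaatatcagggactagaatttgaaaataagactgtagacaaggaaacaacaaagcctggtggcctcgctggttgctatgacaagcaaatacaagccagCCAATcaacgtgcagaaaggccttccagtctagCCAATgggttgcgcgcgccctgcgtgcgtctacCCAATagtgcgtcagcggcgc
Mcm5 chr8:75109259-75109508 (+), overlapping E2F words: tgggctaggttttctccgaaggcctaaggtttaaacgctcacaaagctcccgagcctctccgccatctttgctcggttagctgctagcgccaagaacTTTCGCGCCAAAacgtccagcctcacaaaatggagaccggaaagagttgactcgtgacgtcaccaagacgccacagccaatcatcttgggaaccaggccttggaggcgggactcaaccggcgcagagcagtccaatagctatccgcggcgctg
Actc1 chr2:114052876-114053125 (-), CArG box: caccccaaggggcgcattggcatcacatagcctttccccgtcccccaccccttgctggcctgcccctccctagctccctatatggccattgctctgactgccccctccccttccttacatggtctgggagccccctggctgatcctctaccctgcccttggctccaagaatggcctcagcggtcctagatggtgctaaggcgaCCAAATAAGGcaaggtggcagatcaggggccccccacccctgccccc

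Hmgcs1, which makes the precursor of the mevalonate pathway, rose from 1528, 1471 and 1558 CPM to 1766, 1914 and 1966 CPM (0.31, SE 0.06). Mcm5, a subunit of the replicative helicase, fell from 327.6, 324.2 and 314.0 CPM to 223.5, 207.1 and 189.8 CPM (-0.64, SE 0.07). Ccnb2, a mitotic cyclin, overlapped between the days (81.7, 84.2 and 83.5 CPM against 83, 77.7 and 76.5 CPM) and was not called over the span, though it was higher at D6 (119.7 CPM, first-day change 0.52). Actc1, cardiac actin, was at 162.1, 175.8 and 151.2 CPM at D5 and at 416.0, 306.8 and 134.5 CPM at D7, with the third D7 library under all of D5, and was not called (0.81, SE 0.51, adjusted p = 0.207).

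Some levels cannot be fully assigned to 1 gene, since the use of strand in the counting is not given in the sources used here. Among the genes named here, an exon overlaps one of another gene on either strand for Aldh1l2, Bmp4, Bnc1, Cacna1h, Ccnd1, Ccnd2, Ccnd3, Cdkn1a, Cfc1, Col3a1, Corin, Ddit3, Des, Dhh, Dusp8, Eomes, Fdft1, Fgfr1, Foxf1a, Gata6, Gbp2, Gli1, Gli3, Hand2, Hhip, Hmga2, Hmgcs1, Hoxb5, Igf2bp1, Igf2bp3, Jun, Klhdc7a, Krt8, Lef1, Lin28a, Lss, Mfap4, Myh6, Myh7, Myl3, Myl4, Mylk, Ncam1, Notch1, Nr2f1, Nr2f2, Plagl1, Pou5f1, Rarb, Rb1, Rbl2, Rubie, Sall4, Shh, Shisa3, Slc2a1, Slc8a1, Smtn, St8sia1, Tagln, Tbx18, Tbx3, Tfcp2l1, Trim71, Twist2, Txnip, Unc45b, Wnt11 and Zeb1. Under 80% of the 50-base stretches of the transcripts are unique in the genome's transcripts for Ccnd1, Cfc1, Dhh, Etv5, Fdft1, Krt8, Myh6, Rarb, Rubie, Shh, Tagln and Twist2, and Aldh1a2, Cdh1, Hcn4, Igf2bp1, Osr1 and Pdk1 are also older symbols of other genes.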

How the data were processed

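Poly(A) RNA of the TBX5-FTA line was read as 50-base single ends, and the submitters' processing notes name STAR and mm10. The authors deposited a table of raw counts per gene symbol; its counting program, annotation and use of strand are not given in the sources used here. Of its 21 columns, 3 matched no sample and were not used. Day and library were read from the column names.

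The 23337 symbols were filtered with edgeR's filterByExpr (minimum count 10), which left 13116, scaled by TMM and fitted over all 18 libraries with glmQLFit and glmQLFTest (edgeR 4.0.16, R 4.3.3, 12 residual degrees of freedom). Contrasts were D7 against D5, D6 against D5, D7 against D6, the difference of those 2 steps, D15 against D8, and the difference of the 2 spans. The Benjamini-Hochberg adjustment took in all genes tested, with a threshold of 0.05. The biological coefficient of variation was 8.27%. The fit was tested on simulated data. Alternatives were RLE and upper quartile scaling, other filters, fewer libraries, a 2-fold threshold, limma-voom (limma 3.58.1), DESeq2 1.42.0 and each library left out; list counts and single step differences with a library left out were added after seeing the data. Where a day had no count, a fold is a lower bound from 3 counts over the day.

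The comparison and the 36 gene lists were chosen with earlier results of these data known. Genes were named by a rule: the 12 largest rises and 12 largest falls (mean log2 CPM of at least 2, libraries not overlapping, no predicted models), up to 6 members of each list with the smallest p, members called against most of their list, 12 set genes of the heart and Hedgehog fields, and the 4 largest step differences in each direction. Coordinates and exon overlaps are from GENCODE M21 on mm10, and promoter windows from RefSeq. Some list members are not reported here.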

Additional observations from a re-analysis of the deposited data

Results flagged for a closer look

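The 12 largest rises, the 12 largest falls and the 12 set genes of the naming rule were compared between the spans. Of these, 16 were called in opposite directions from D5 to D7 and from D8 to D15. Over all genes tested, 1824 (13.9%) were, which is 38.5% of those called in both spans. The rises and falls were picked by their change from D5 to D7, so the 16 are not directly comparable with these shares. The difference between the spans was past the threshold in edgeR's interaction test for all 16. It was so for all 1824 as well, so that test adds no separate support. The value given is the log2 change of D7 against D5 minus that of D15 against D8. It was positive, with a rise in the early span and a fall in the late one, for Shisa3 (10.47), Odz2 (9.87), Postn (8.67), Fam46c (6.67), Igfbp5 (6.28), St8sia1 (6.27), Nrk (5.96), Plagl1 (5.51) and Hand2 (1.27). It was negative, with a fall and then a rise, for Slc30a2 (-10.17), L1td1 (-9.33), Ms4a4d (-6.37), Fam46b (-5.84), Wnt4 (-5.80), Tbx3 (-5.70) and Klhdc7a (-5.36). Groups of 3 libraries were too small for the check on single outlying libraries.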

How the results depend on the processing

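No called change of a named gene from D5 to D7 changed sign under an alternative. The median of 3 lists did when a library was left out: ATF4 from 0.03 to -0.01 or -0.07, neural from 0.15 to -0.06 without the second D7 library, and primitive blood from -0.15 to 0.07 without the first D5 library. The counts of genes for D7 against D5, the step difference and the span difference moved by over 1.5 times in the settings that follow. Tested against a 2-fold change, 596 genes rose and 382 fell from D5 to D7, the step difference was positive for 90 and negative for 135, and the span difference for 911 and 1171. Without the first D6 library the step difference was positive for 727 genes and negative for 1038. With each library left out, 3105 to 3223 genes rose and 3032 to 3122 fell from D5 to D7, the step difference was positive for 727 to 1203 and negative for 1038 to 1550, and the span difference was positive for 3396 to 3546 and negative for 3053 to 3207. Of 238 named genes tested from D5 to D7, 217 were called, and 12 of these were not in at least 1 alternative other than the 2-fold test: Atf3, Cacna1h, Ddit3, Hbb-bh1, Ier2, Myh6, Myl3, Ppargc1a, Smtn, Sufu, Txnip and Zeb1. The 2-fold test lost 99. Many of these genes were named for a large change or a small p in this same comparison. Their counts are thus no measure for all genes tested, of which 52.3% were called. No paired analysis was possible because the titles carry replicate numbers but the columns of the count table carry only running numbers. At these depths, Gli1, which was under the filter, could not be followed. Nkx2-5 was tested but stayed near the detection limit, with a wide spread between libraries of a day, and was not called.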

Other observations

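Neural and immediate early genes were not described above. Of 6 tested neural members 1 rose and 2 fell: Nes, an intermediate filament also made by other precursors, went from 259.9, 260.5 and 239.4 CPM to 43.8, 53.3 and 33 CPM, and Tubb3 fell by 2.57 (SE 0.35), while Ncam1 rose by 0.91 (SE 0.13). Of 9 immediate early genes 4 fell and 1 rose, with 2 falls without the second D5, the second D7 or the third D7 library. Myc went from 19.5, 27.6 and 21.1 CPM to 5.36, 9.41 and 3.56 CPM, and Jun from 30.5, 54.2 and 37.3 CPM to 87.4, 83.7 and 90.3 CPM.

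Hbb-y, an embryonic globin under the filter, had 0 counts over the D5 libraries, 5 at D6 and 17 at D7, at least 6.16-fold higher at D7 than at D5 by the floor of 3 counts.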
